A study of Xenopus laevis with 12 samples.

Results

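Chromatin remodelers and histone modifying enzymes were followed in single frog embryos given mRNA for Nkx2-5, a homeobox gene product best known from heart development. The genes were taken by symbol, under a rule set with earlier results of these data known. They are the probe sets of the array whose gene symbol begins with smarc, hdac, kdm, kmt, setd, ehmt, ezh, suz12, dnmt, arid or prmt, or with tet, chd, kat or brd followed by a number, with the probe set of highest mean log2 value kept for each symbol. This gave 42 genes of 7531 named genes on the array, from 55 probe sets, and they stand for 36 genes when L and S copies are merged. Xenopus laevis carries many genes as such a pair of copies, called homeologs, and the 42 hold 25 L copies, 16 S copies and suz12, which has no copy letter. The array's annotation named no gene of the ehmt and tet families.

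The embryos were Xenopus laevis, injected at the 8-cell stage and collected one by one at stage 11.5, during gastrulation. Per the labels, 6 embryos received Nkx2-5 mRNA with GFP mRNA (Nkx2-5+GFP) and 6 received GFP mRNA alone (GFP), GFP being the jellyfish fluorescent protein used as control. Both groups carry the same experiment tag in the labels, so the 6 embryos per group are not repeats of the experiment. The labels give neither the mRNA dose, the site of injection, the parents nor the wild-type strain of the embryos, and which cells of an embryo held the mRNA is not given in them. Each array measured the whole embryo, so fewer cells that express a gene and less RNA per cell cannot be told apart, and the p-values rest on embryo-to-embryo spread, which may be partly technical.

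Chromatin enzymes control how tightly DNA is packed on histones. Remodelers of the SNF2, ISWI and CHD types use ATP to slide or eject nucleosomes, acetyltransferases and deacetylases add and remove acetyl groups on histones, and methyltransferases and demethylases do the same with methyl groups. In the frog embryo many of these proteins and their mRNAs are supplied by the egg, before the embryo's own genes become active, and they are used by nearly all cells of the gastrula.

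Few of these genes passed the threshold for a difference between the groups. Of the 42 genes, 1 rose in Nkx2-5+GFP embryos, 3 fell and 38 did not pass at an adjusted p under 0.05 (limma, Benjamini-Hochberg adjustment over all 15491 probe sets tested). kat7.L, a histone acetyltransferase gene, rose by 0.87 on the log2 scale. kmt5a.L, the gene of the enzyme that places the first methyl group on lysine 20 of histone H4, fell by 0.58, smarca5.S, the ISWI ATPase gene, by 0.49 and hdac6.L, a deacetylase gene, by 0.40. The median log2 difference of the 42 genes was 0.03, beside -0.02 over all probe sets tested.

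The 4 genes called are 9.52% of the 42, close to the share over the array. Over all probe sets 6.38% were called, with 3.12% higher and 3.26% lower, and with 1 probe set per named gene 6.97% were called. The 2 groups did not overlap in 2 of the 42 genes, kmt5a.L and smarca5.S, where 2.99% of all probe sets showed no overlap. The median size of the log2 difference, without its sign, was 0.11 for the 42 genes and 0.19 for all probe sets. An unadjusted p under 0.05 was reached by 9 of the 42 genes, or 21.4%, beside 24.3% of all probe sets. These comparisons were not matched for signal. Of the 42 genes 32 lay among the 7746 brighter probe sets. In a limma fit of those alone 13.1% of the 7746 were called, and 15.6% of the 32. The 95% interval of the difference lay inside -1 and 1 on the log2 scale for 40 genes, the exceptions being kat7.L and kdm6a.S, and inside -0.5 and 0.5 for 27.

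**Figure D1:**
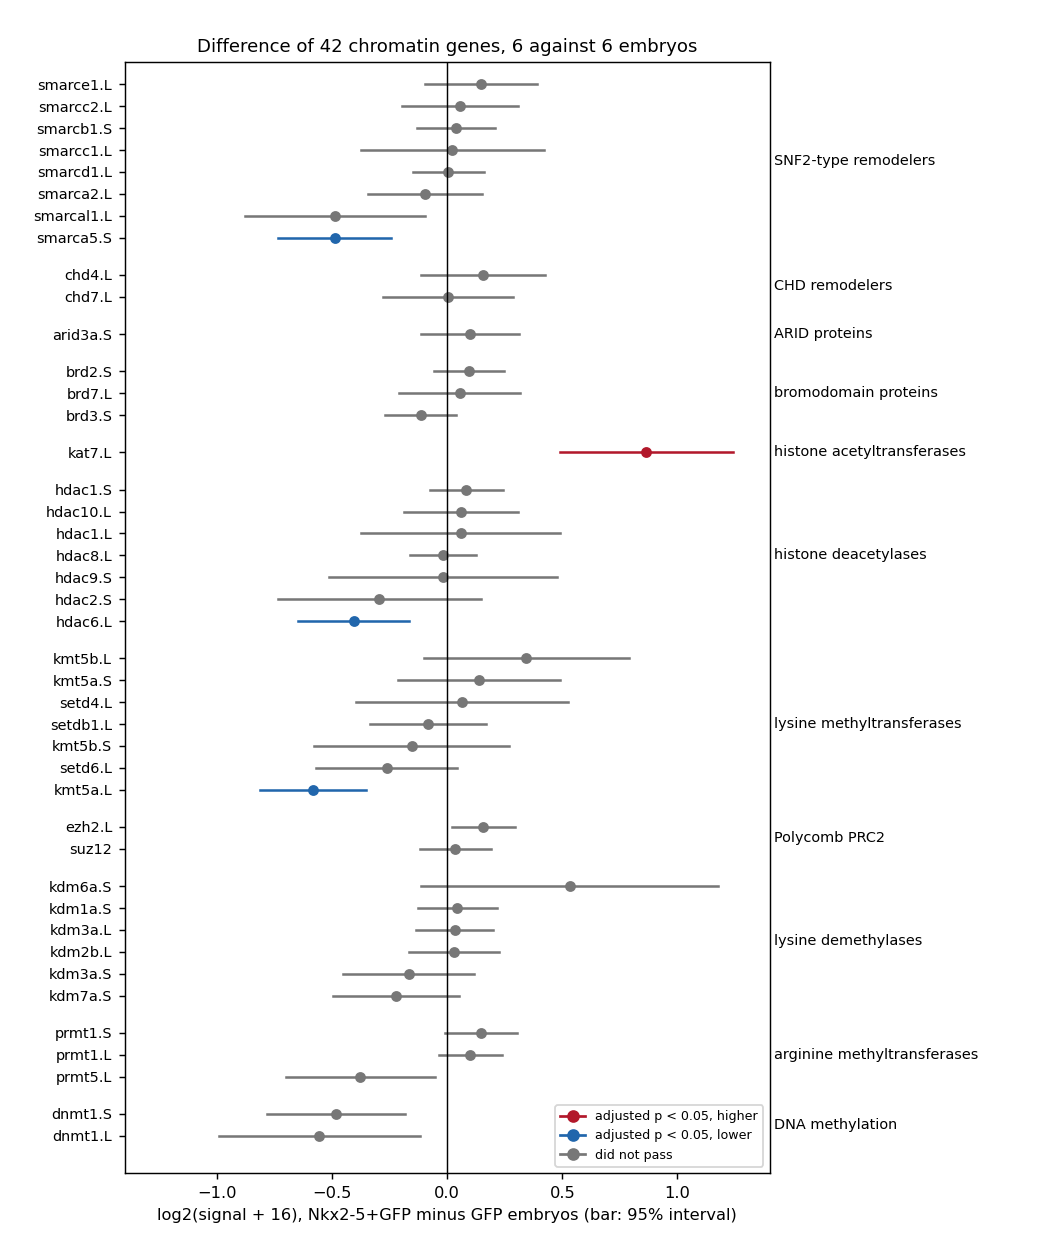
Log2 difference of each of the 42 genes (Nkx2-5+GFP minus GFP, log2(signal + 16), 6 embryos each), with bars for the 95% interval of limma and genes ordered by role. Red marks the gene called higher, kat7.L at 0.87, blue the 3 called lower, kmt5a.L, smarca5.S and hdac6.L, and grey the 38 that did not pass.

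Germ layer markers were present in both groups. Ectoderm marker signals summed to 23215 to 37486 in Nkx2-5+GFP and 22406 to 29947 in GFP embryos. Mesoderm markers summed to 20194 to 27007 in Nkx2-5+GFP and 16970 to 21307 in GFP embryos, and endoderm markers to 7517 to 9544 in Nkx2-5+GFP and 10395 to 13031 in GFP embryos, without overlap. The 4 genes of later tissues, globins and lens crystallins, were low and summed to 67.9 to 140.3 in Nkx2-5+GFP embryos and 47.7 to 186 in GFP embryos. The groups differed in other features as well. Of 9 ectoderm marker genes 3 rose, both krt12.4 copies and itln1.L, and 1 fell, sox3.L. Of 8 mesoderm genes 2 rose, msgn1.L and myod1.L. The other mesoderm genes did not pass, at log2 differences from -0.49 for gsc.S to 0.67 for myod1.S, with tbxt.S at 0.08 and wnt8a.L at 0.05. The 2 of 7 endoderm genes that fell were the copies of mix1. mix1.L averaged 591 in Nkx2-5+GFP and 1451 in GFP embryos, and mix1.S 840 and 1982. The sox17a, sox17b.1 and gata6 genes did not pass, at log2 differences of -0.33 to -0.05. Of 3 maternal genes 2 fell, grip2.L and mos.L. Maternal sums were 5910 to 9042 in Nkx2-5+GFP embryos and 7112 to 11037 in GFP embryos. The ratio of the 3' to the 5' probe set of beta-actin, a measure of RNA quality, was 2.68 to 3.33 in Nkx2-5+GFP embryos and 2.81 to 4.27 in GFP embryos. With this ratio in the fit, 1 of the 42 genes was called, kmt5a.L, and 1.03% of all probe sets. The part of the cell mixture, of maternal RNA and of RNA quality in the results was not tested.

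Among the 7 lysine methyltransferase genes, 1 fell and 6 did not pass. kmt5a.L had signals of 382 to 575 with a median of 491 in Nkx2-5+GFP embryos, and of 669 to 810 with a median of 735 in GFP embryos. Every Nkx2-5+GFP embryo lay below every GFP embryo. The log2 difference was -0.58 (SE 0.11, 95% interval -0.81 to -0.35, limma adjusted p = 0.00853, exact permutation p = 0.00216, the smallest these 12 embryos can give). The call was kept in each of 23 alternatives, with adjusted p-values from 0.00641 to 0.0257 and differences from -0.63 to -0.51. It was the sole gene of the 42 to pass in all of them.

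The S copy did not pass. kmt5a.S, which encodes the same type of enzyme, had signals of 1611 to 3319 with a median of 2303 in Nkx2-5+GFP embryos and of 1492 to 2929 with a median of 2108 in GFP embryos. These ranges overlapped widely, and the log2 difference was 0.14 (95% interval -0.21 to 0.49, limma adjusted p = 0.67). kmt5b, the related enzyme that adds further methyl groups to the same lysine, also had both copies on the array. kmt5b.L was at 108 to 298 in Nkx2-5+GFP and 113 to 199 in GFP embryos (log2 difference 0.34, 95% interval -0.10 to 0.79), and kmt5b.S was at 35.8 to 87.8 in Nkx2-5+GFP and 44.4 to 90.4 in GFP embryos (log2 difference -0.15, 95% interval -0.58 to 0.27). Neither passed.

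The other methyltransferase genes did not pass either. setd6.L, known in mammals for methylating the RelA subunit of NF-kappaB, had the smallest p among them. It was at 126 to 195 with a median of 185 in Nkx2-5+GFP embryos and at 189 to 219.6 with a median of 205.5 in GFP embryos. The groups overlapped, and the log2 difference was -0.26 (95% interval -0.57 to 0.04, limma adjusted p = 0.282, exact permutation p = 0.0173). setd4.L differed by 0.06 (95% interval -0.39 to 0.52) and setdb1.L, an H3 lysine 9 methyltransferase gene, by -0.08 (95% interval -0.34 to 0.17). The array holds 3 more setdb1.L probe sets, which differed by -0.25, 0.08 and 0.12 and did not pass.

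kat7.L was the only acetyltransferase gene the rule took. In mammals KAT7, also called HBO1, acetylates histones H3 and H4 and takes part in the licensing of DNA replication origins. Its signals were 944 to 1771 with a median of 1247 in Nkx2-5+GFP embryos and 438 to 975 with a median of 681 in GFP embryos. The groups met at 1 embryo on each side, since Nkx2-5+GFP embryo 5, at 944, lay just below GFP embryo 5, at 975. The log2 difference was 0.87 (SE 0.18, 95% interval 0.49 to 1.24, limma adjusted p = 0.0143, exact permutation p = 0.00433).

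A second, dimmer kat7.L probe set did not show this difference. It averaged 171 in Nkx2-5+GFP and 166.5 in GFP embryos, a log2 difference of 0.04 (limma adjusted p = 0.91). With the mean of both probe sets the difference was 0.45 (limma adjusted p = 0.0439). kat7.L passed in 22 of the 23 alternatives, all 12 with 1 embryo left out among them, and did not pass with the beta-actin ratio in the fit, at a difference of 0.76 (limma adjusted p = 0.0763).

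**Figure D2:**
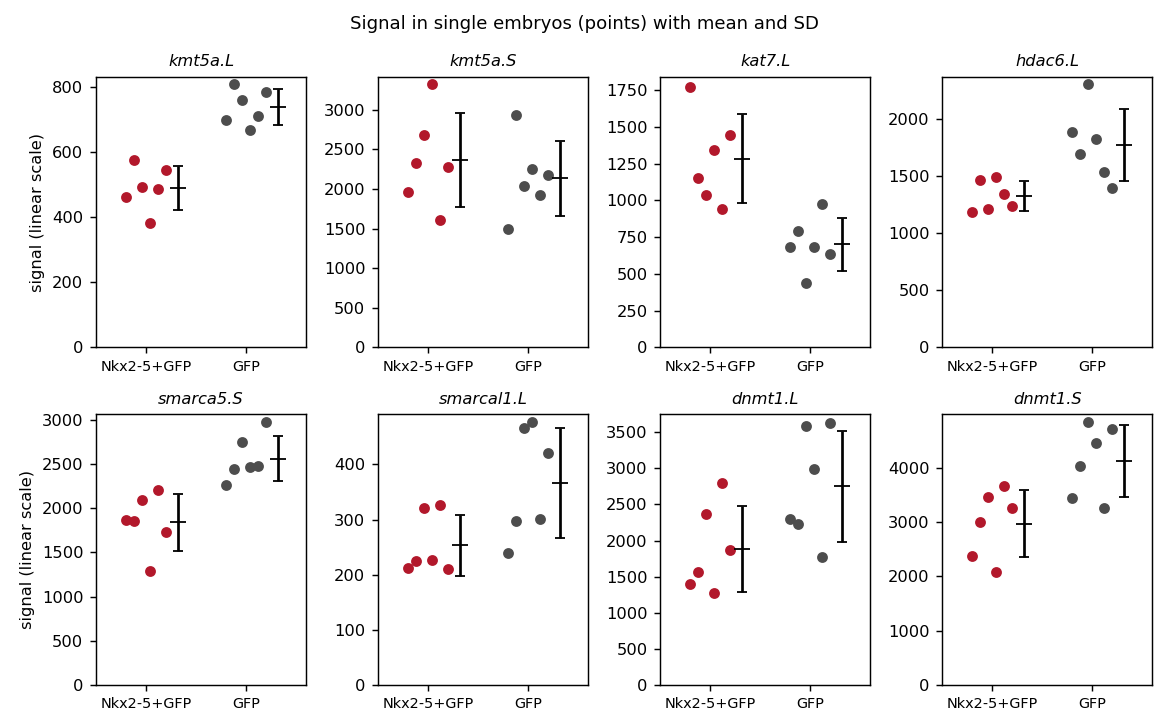
Signal on a linear scale in each of the 6 Nkx2-5+GFP and 6 GFP embryos (points, replicates 1 to 6 from left to right), with the mean and SD beside them, for the 4 genes called, for kmt5a.S, and for smarcal1.L and both dnmt1 copies, which did not pass. The groups are apart for kmt5a.L and smarca5.S and overlap in the other 6 panels.

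Of 8 SNF2-type remodeler genes, which are ATPases of this family and subunits of the SWI/SNF complex, 1 fell and 7 did not pass. smarca5.S encodes the ATPase of the ISWI complexes, which space nucleosomes. Its signals were 1294 to 2205 with a median of 1858 in Nkx2-5+GFP embryos and 2262 to 2979 with a median of 2472 in GFP embryos. The groups did not overlap. The log2 difference was -0.49 (SE 0.12, 95% interval -0.73 to -0.24, limma adjusted p = 0.0256, exact permutation p = 0.00216).

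smarca5.S passed in 17 of the 23 alternatives, among them 8 of the 12 with 1 embryo left out, and did not pass in 6. In these 6 the limma adjusted p was 0.0612 without GFP embryo 3, 0.0592 without GFP embryo 6, 0.0566 without Nkx2-5+GFP embryo 1 and 0.052 without Nkx2-5+GFP embryo 6, as well as 0.0575 without the intensity trend and 0.0632 with the beta-actin ratio in the fit. The difference itself stayed between -0.55 and -0.39 over all 23 alternatives.

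smarcal1.L, which in mammals encodes an annealing helicase of stalled replication forks, was next by p. It was at 209.7 to 326 with a median of 226 in Nkx2-5+GFP embryos and at 239.5 to 477 with a median of 360.4 in GFP embryos, and the groups overlapped. It differed by -0.49 on the log2 scale (95% interval -0.88 to -0.10, limma adjusted p = 0.118, exact permutation p = 0.0498). The subunit genes of SWI/SNF lay near 0. smarcb1.S differed by 0.04 (95% interval -0.13 to 0.21), smarcd1.L by 0.00 (95% interval -0.15 to 0.16), smarcc1.L by 0.02 (95% interval -0.38 to 0.42), smarcc2.L by 0.05 (95% interval -0.20 to 0.31) and smarce1.L by 0.15 (95% interval -0.10 to 0.39). smarca2.L, an ATPase gene of the same complex, differed by -0.10 (95% interval -0.34 to 0.15). A dimmer smarcc2.L probe set differed by -0.47 without passing (limma adjusted p = 0.341), and a dimmer smarcal1.L one by -0.60 (limma adjusted p = 0.265).

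The CHD, ARID and bromodomain genes held no call among 6. chd4.L, the ATPase gene of the NuRD complex, was at 552 to 903 in Nkx2-5+GFP and 562 to 795 in GFP embryos, a log2 difference of 0.15 (95% interval -0.11 to 0.42). chd7.L, whose human counterpart is mutated in CHARGE syndrome, differed by 0.00 (95% interval -0.28 to 0.29), and its 2 dimmer probe sets by -0.06 and 0.03. arid3a.S, a gene of an ARID-type DNA-binding protein, differed by 0.10 (95% interval -0.11 to 0.31). Bromodomain proteins bind acetylated histones. brd2.S differed by 0.10 (95% interval -0.06 to 0.25), brd7.L, a SWI/SNF subunit gene, by 0.05 (95% interval -0.21 to 0.32), and brd3.S, of smallest p in this group, by -0.12 (95% interval -0.27 to 0.04, limma adjusted p = 0.359).

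Of 7 histone deacetylase genes, 1 fell and 6 did not pass. hdac6.L encodes a mostly cytoplasmic deacetylase that in mammals acts on tubulin. Its signals were 1181 to 1491 with a median of 1290 in Nkx2-5+GFP embryos and 1396 to 2305 with a median of 1753 in GFP embryos. Overlap came from GFP embryo 6, at 1396, which lay below 2 of the Nkx2-5+GFP embryos. The log2 difference was -0.40 (SE 0.11, 95% interval -0.65 to -0.16, limma adjusted p = 0.0463, exact permutation p = 0.00866).

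The hdac6.L call was the least stable of the 4. It passed in 9 of the 23 alternatives. Among the fits with 1 embryo left out it passed in 3 of 12, those lacking GFP embryo 5, GFP embryo 6 and Nkx2-5+GFP embryo 5, and the limma adjusted p reached 0.105 without GFP embryo 3 and 0.109 without Nkx2-5+GFP embryo 1. It did not pass with quantile normalization (0.0697) or median scaling (0.0876), nor with the beta-actin ratio in the fit (limma adjusted p = 0.203). After group means were removed, that ratio correlated with hdac6.L at 0.56 over the 12 embryos, in size the largest value among the 42 genes. The correlation was -0.32 for kat7.L and -0.24 for smarca5.S, which also did not pass in that fit. For kmt5a.L, which passed, it was -0.32. With the ratio in the fit 1.03% of all probe sets were called, beside 6.38% without it. The log2 difference of smarca5.S was then -0.54, beside -0.49 without the ratio, while that of kat7.L was smaller with it. The part of RNA quality in the calls of the 4 genes was not tested.

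The other deacetylase genes did not pass. In mammals HDAC1 and HDAC2 work in the NuRD and Sin3 corepressor complexes. hdac1.S had signals of 3829 to 4544 in Nkx2-5+GFP and 3511 to 4652 in GFP embryos, a log2 difference of 0.08 (95% interval -0.08 to 0.24), and hdac1.L differed by 0.06 (95% interval -0.38 to 0.49). hdac8.L was the tightest of the family, at 1802 to 2017 in Nkx2-5+GFP and 1812 to 2076 in GFP embryos, a difference of -0.02 (95% interval -0.16 to 0.13). hdac2.S was dim, at 50.0 to 104 in Nkx2-5+GFP and 57.9 to 137.4 in GFP embryos, and differed by -0.30 (95% interval -0.74 to 0.15, limma adjusted p = 0.418). hdac9.S, also dim, at 18.1 to 70.4 in Nkx2-5+GFP and 26.3 to 54.9 in GFP embryos, differed by -0.02 (95% interval -0.51 to 0.48), and hdac10.L differed by 0.06 (95% interval -0.19 to 0.31). At the low signals of hdac2.S and hdac9.S the pseudocount of 16 compresses differences.

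DNA methylation was represented by both copies of dnmt1, the maintenance methyltransferase that copies methyl marks to new DNA strands. dnmt1.S was at 2081 to 3657 with a median of 3127 in Nkx2-5+GFP embryos and at 3252 to 4841 with a median of 4242 in GFP embryos. dnmt1.L was at 1275 to 2799 with a median of 1716 in Nkx2-5+GFP embryos and at 1774 to 3630 with a median of 2644 in GFP embryos. Both copies had lower medians in Nkx2-5+GFP embryos, but the groups overlapped and neither passed. The log2 differences were -0.48 for dnmt1.S (95% interval -0.78 to -0.18, limma adjusted p = 0.0539, exact permutation p = 0.0195) and -0.55 for dnmt1.L (95% interval -0.99 to -0.12, limma adjusted p = 0.112, exact permutation p = 0.0563).

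The dnmt1 copies passed when certain embryos were left out. The limma adjusted p of dnmt1.S was 0.0275 without GFP embryo 5 and 0.0282 without Nkx2-5+GFP embryo 5, and that of dnmt1.L was 0.046 and 0.041 in these fits. dnmt1.S also passed without the dimmer probe sets (0.041) and with robust estimation. Calls over the whole array rose as well, from 6.38% with all embryos to 9.58% without GFP embryo 5 and 9.59% without Nkx2-5+GFP embryo 5. They were 13.1% without the dimmer probe sets and 6.76% with robust estimation.

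Polycomb repressive complex 2 methylates lysine 27 of histone H3. ezh2.L, its catalytic subunit gene, was at 7504 to 8411 with a median of 7877 in Nkx2-5+GFP embryos and at 6394 to 7914 with a median of 7026 in GFP embryos. The log2 difference of 0.16 was small beside those of the called genes and did not pass in limma. Its 95% interval was 0.02 to 0.29 (limma adjusted p = 0.146, exact permutation p = 0.0152, not adjusted). suz12, another core subunit gene, was at 6945 to 8647 in Nkx2-5+GFP and 7105 to 8463 in GFP embryos, a difference of 0.03 (95% interval -0.12 to 0.19).

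Of 6 lysine demethylase genes none passed in limma, and none reached an unadjusted p under 0.05. kdm6a.S, which encodes a demethylase of the mark that Polycomb places, was dim and uneven, at 54.0 to 82.4 in Nkx2-5+GFP embryos and 5.51 to 87.8 in GFP embryos. Its log2 difference of 0.53 had a wide interval (95% interval -0.12 to 1.18, limma adjusted p = 0.309). kdm7a.S differed by -0.22 (95% interval -0.49 to 0.05) and kdm3a.S, an H3 lysine 9 demethylase gene, by -0.17 (95% interval -0.45 to 0.12). Differences were nearer 0 for kdm3a.L at 0.03 (95% interval -0.14 to 0.20), for kdm2b.L at 0.03 (95% interval -0.16 to 0.23) and for kdm1a.S, the LSD1 gene, at 0.04 (95% interval -0.13 to 0.22).

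None of the 3 arginine methyltransferase genes passed. prmt5.L, whose product makes symmetric dimethylarginine, was at 672 to 1050 with a median of 828 in Nkx2-5+GFP embryos and at 779 to 1496 with a median of 1119 in GFP embryos. These groups overlapped too, at a log2 difference of -0.38 (95% interval -0.70 to -0.05, limma adjusted p = 0.141). prmt1, the main source of asymmetric dimethylarginine in mammals, gave bright signals in both copies. prmt1.L lay between 36262 and 44880.1 in Nkx2-5+GFP and 34635 and 40693 in GFP embryos and differed by 0.10 (95% interval -0.04 to 0.24), and prmt1.S differed by 0.15 (95% interval -0.01 to 0.30). A dimmer prmt1.L probe set differed by 0.28 (limma adjusted p = 0.135).

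The array held 6 of these genes in both copies, and the L-minus-S difference within each embryo compares the responses of their probe sets. It speaks of the copies only if each probe set reads its own copy alone, which was not tested. In limma 0 of the 6 pairs passed after adjustment over the 1017 homeolog pairs of the array, of which 1.08% passed. For kmt5a, log2 L minus log2 S was -3.07 to -1.69 with a median of -2.04 in Nkx2-5+GFP embryos and -1.83 to -1.08 with a median of -1.43 in GFP embryos. The change in this difference was -0.72 (SE 0.21, 95% interval -1.17 to -0.26, limma adjusted p = 0.113, exact permutation p = 0.00649). After this adjustment, the response of the L copy was not shown to differ from that of the S copy.

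For kmt5b, log2 L minus log2 S was 0.93 to 1.91 with a median of 1.58 in Nkx2-5+GFP embryos and 0.69 to 1.4 with a median of 1.0 in GFP embryos. The change was 0.50 (95% interval 0.12 to 0.88, limma adjusted p = 0.178). It rests on a dim kmt5b.S, at 35.8 to 87.8 in Nkx2-5+GFP and 44.4 to 90.4 in GFP embryos. The other 4 pairs changed less, by 0.20 for kdm3a (95% interval -0.07 to 0.47), -0.07 for dnmt1 (95% interval -0.34 to 0.19), -0.05 for prmt1 (95% interval -0.27 to 0.18) and -0.03 for hdac1 (95% interval -0.47 to 0.42). These intervals leave room for unequal responses of the sizes they span.

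**Figure D3:**
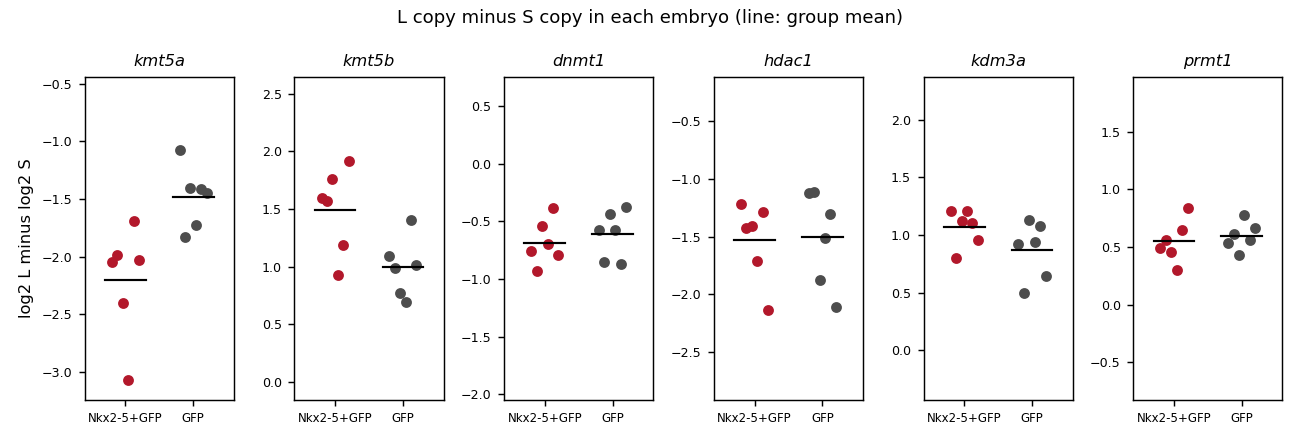
Log2 signal of the L copy minus that of the S copy in each of 6 Nkx2-5+GFP and 6 GFP embryos, for the 6 genes with both copies on the array, with lines at the group means and the same height of scale in each panel. The mean is -2.20 in Nkx2-5+GFP and -1.49 in GFP embryos for kmt5a, while the groups overlap in all 6 panels.

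Embryos of 1 group differed from each other in these genes. The SD between embryos on the log2 scale had a median over the 42 genes of 0.23 in Nkx2-5+GFP and 0.16 in GFP embryos. Over all probe sets, not matched for signal, it was 0.28 and 0.25. Nkx2-5+GFP embryo 5 was the lowest of its group in 16 of the 42 genes and Nkx2-5+GFP embryo 6 the highest in 12, and GFP embryo 1 was the lowest of its group in 12. Nkx2-5+GFP embryo 5 was also the highest of its group in 9. Its median deviation from the mean of its own group, taken without sign, was 0.16, the largest of the 12 embryos. With sign, median deviations from the 12-embryo mean lay between -0.04 and 0.06 in Nkx2-5+GFP and between -0.03 and 0.10 in GFP embryos. Over all probe sets they lay between -0.04 and 0.05 in Nkx2-5+GFP and between -0.01 and 0.05 in GFP embryos. The counts of highest and lowest genes were not taken over the whole array.

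The dnmt1 copies varied together from embryo to embryo, in a comparison added after the data were seen. With group means removed, Pearson's r between dnmt1.L and dnmt1.S was 0.92 and Spearman's rho 0.96 over 12 embryos (permutation p = 0.00019 and 6e-05, adjusted over the 6 pairs 0.00114 and 0.00036). r was 0.92 in Nkx2-5+GFP embryos alone, 0.94 in GFP embryos alone, and 0.93 without the 2 embryos farthest from the median of dnmt1.L. The copies share array and embryo, and whether a probe set of one copy also detects the other was not tested.

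The other 5 pairs did not pass. Pearson's r was 0.61 for kmt5b, 0.60 for kdm3a, 0.50 for hdac1, 0.14 for prmt1 and -0.11 for kmt5a, with permutation p-values of 0.0509, 0.0421, 0.151, 0.663 and 0.765 and adjusted values of 0.102, 0.102, 0.226, 0.765 and 0.765. Their rho was 0.64, 0.61, 0.57, 0.24 and 0.06, with adjusted permutation p-values of 0.0993, 0.0993, 0.0993, 0.546 and 0.865. Without the 2 embryos farthest from the L copy's median, r was 0.70, 0.22, 0.31, 0.38 and 0.49. Over all 861 pairs of the 42 genes the median r was 0.05, and 4 pairs had an r over 0.8. After adjustment over the 861, 0 pairs passed a permutation test of r, and 55 had an unadjusted p under 0.05. The dnmt1 pair is among the 861 and so did not pass there. Such correlations were not taken over the 1017 homeolog pairs of the array.

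**Figure D4:**
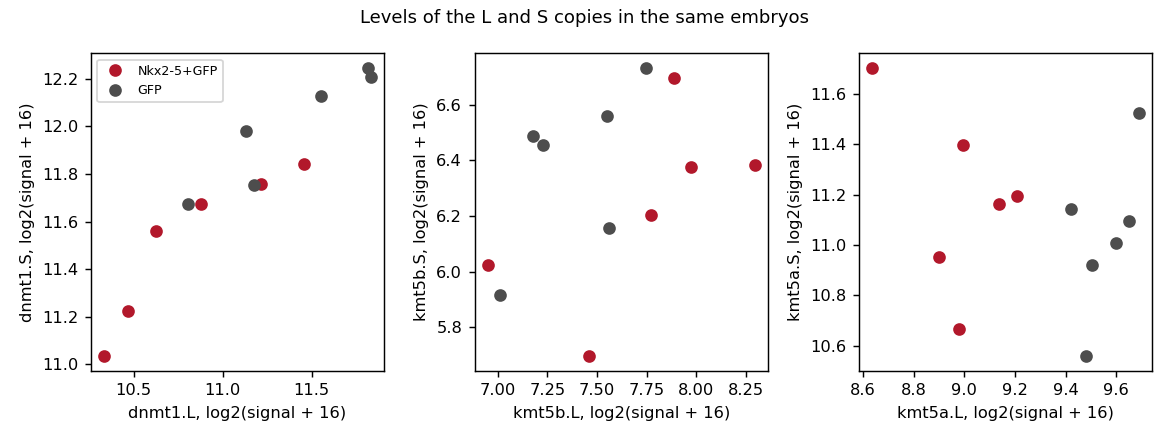
Log2(signal + 16) of the S copy against that of the L copy in the same embryos, for dnmt1, kmt5b and kmt5a, with 6 Nkx2-5+GFP and 6 GFP embryos as points. The dnmt1 copies lie along a line in both groups (r of 0.92 after group means were removed). For kmt5a this r was -0.11, with -0.44 in Nkx2-5+GFP embryos alone and 0.58 in GFP embryos alone.

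For 10 of the 42 genes the array holds 13 further probe sets, and none of these passed in limma. Of the 13, 7 differed with the same sign as the chosen probe set. The only called gene with a second probe set was kat7.L.

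Other genes of the same pathways, outside the symbols of the rule, were read from a list of partners and further chromatin enzymes. Of its 179 names 95 were on the array, as 116 genes. Here 7 genes fell, 0 rose and 109 missed the threshold in limma, 32 genes having an unadjusted p under 0.05. The 7 are 6.03% of the 116, where 3.26% of all probe sets fell and 6.38% were called in either direction, and the median log2 difference was 0.01. suv39h1.L, an H3 lysine 9 methyltransferase gene, averaged 1850 ± 321 in Nkx2-5+GFP and 2651 ± 344 in GFP embryos (SD, n = 6 each) and fell by 0.52 (SE 0.12, limma adjusted p = 0.023).

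The other 6 that fell belong to corepressor, Polycomb, acetylation and chaperone groups. sap130.L and sin3a.S, genes of the Sin3 deacetylase complex that holds hdac1 and hdac2, fell by 0.39 each. aebp2.S, a Polycomb partner gene, fell by 0.41, and ing3.L, a subunit gene of the TIP60 acetyltransferase complex, by 0.65. chaf1a.L, a subunit gene of the chaperone that loads histones behind the replication fork, fell by 0.48, and npm2.L, the egg's nucleoplasmin gene, by 0.39. Their limma adjusted p-values lay between 0.0237 for sap130.L and 0.0473 for ing3.L. In limma 0 passed among 18 genes of heterochromatin and methyl-DNA proteins and among 12 partner genes of SWI/SNF and ISWI. Among 9 other genes of acetyltransferases and their partners 0 passed as well. An unadjusted limma p under 0.05 was reached by 9 of the 18, 2 of the 12 and 1 of the 9, beside 24.3% of all probe sets. With 1 probe set per named gene that share was 26.9%. Such a p was also reached by 7 of the 14 genes of NuRD, Sin3 and other corepressors and 5 of 15 Polycomb partner genes. The counts were 4 of 22 for histone chaperones, 3 of 13 for other methyltransferases and trithorax partners and 1 of 13 for the INO80, SWR1 and TIP60 complexes. Over the whole list it was 32 of the 116.

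**Figure D5:**
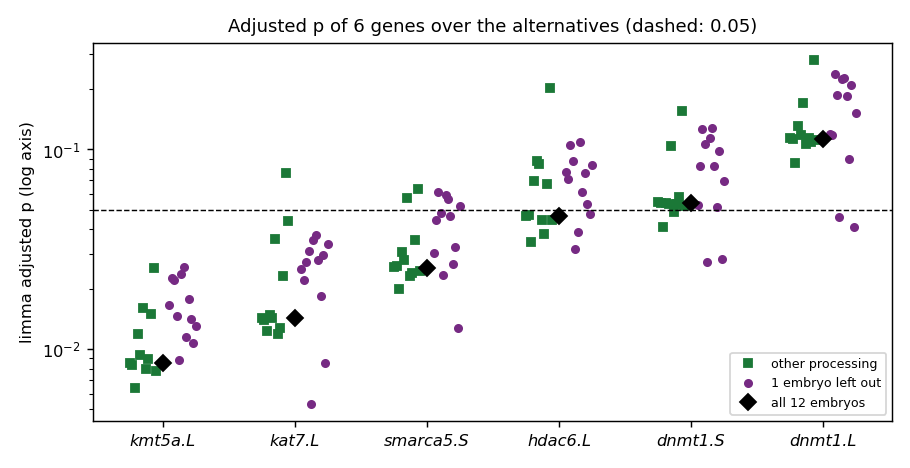
Limma adjusted p (log axis) of the 4 genes called and of both dnmt1 copies with all 12 embryos (diamonds), under 11 other ways of processing (squares) and with 1 embryo left out in turn (circles), the dashed line marking 0.05. All values of kmt5a.L lie below the line, 1 of kat7.L lies above it, and most of hdac6.L, dnmt1.S and dnmt1.L lie above it.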

How the data were processed

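The authors deposited 1 linear intensity value per probe set and embryo. The submitters' processing notes name MAS5, with no version. Detection calls were not used here. Per the labels, 100 ng of total RNA of each embryo was labelled in 2 cycles. The scale was read from the values, whose mean without the lowest and highest 2% was 1000.1 on each array. Of 15611 probe sets, 120 manufacturer controls were left out and 15491 tested, with no filter on low values. Median signals lay between 302 and 346. No depth applies to arrays, and their number limits the precision.

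Signals were taken as log2(signal + 16), which understates changes of dim probe sets, and fitted with limma 3.58.1 in R 4.3.3 (lmFit, eBayes with an intensity trend, 2-sided). Intervals are limma's 95% intervals, not adjusted for the number of genes, and the SE is its moderated standard error. The 2-sided exact permutation test used all 924 assignments of 12 embryos to groups of 6. Homeolog pairs were tested with limma on log2 L minus log2 S over 1017 pairs. Correlations used 100000 permutations within groups. Scripts were tested on simulated data, with 100 probe sets changed by each of 2 sizes. The fit recovered 30% of changes of 0.5 and 77% of changes of 1 on the log2 scale. Fewer probe sets were changed there than the 988 called in the data, so the adjustment was stricter in the simulation. The changed probe sets were drawn from all 15491 and not matched to the 42 genes, so these shares do not give the recovery for the 42. Not passing does not show that a gene was unchanged. Plots used matplotlib 3.10.9.

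Names come from the array's annotation table, updated by gene number with the RefSeq gene table of Xenopus_laevis_v10.1, where 41 of the 42 genes were found. The table gives 9304 probe sets 1 gene, 195 probe sets more than 1, and leaves 5992 unnamed. Sequences were not used here.

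The genes, the lists and the rule for named genes were chosen with earlier results of these data known. The rule names each called gene, its homeolog, and in each role group the gene of smallest p that did not pass and the one nearest 0. The remaining genes are given for completeness, and they, the counts of intervals, the correlations and the plotted dnmt1 and smarcal1.L panels were chosen after values were seen. Alternatives were pseudocounts of 1 and 64, leaving out dimmer probe sets, quantile normalization, median scaling, eBayes without trend or robust, array weights, a replicate block, the beta-actin 3' to 5' ratio as a covariate, the mean of all probe sets of a gene, and leaving out each embryo.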

Additional observations from a re-analysis of the deposited data

Results flagged for a closer look

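In suz12, the gene of a core Polycomb subunit, GFP embryo 5 lay far from the rest of its group. Its signal was 8463, the next highest of the GFP embryos 7505 and the lowest 7105, so the gap took 0.69 of the group's range on the log2 scale, above the 95% Dixon limit for 6 values. This was 1 such value among the 84 groups looked at, and chance alone gives about 1 in 20.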

How the results depend on the processing

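Of 38 genes that did not pass, 36 passed in none of the alternatives that tested them, and the 2 that did were the dnmt1 copies. Genes among the dimmer probe sets were tested in 22 of the 23 alternatives, the others in all 23. No called gene changed its sign in any of them, while 14 of the genes that did not pass did so in at least 1, and smarcc2.L went to -0.21 with the mean of its probe sets. The counts with all embryos were 1 higher and 3 lower. The count of lower genes was 1 without the intensity trend, and with the beta-actin ratio as a covariate 0 were higher and 1 was lower. With 1 embryo left out, between 1 and 5 genes were lower. It was 1 without GFP embryo 3, without Nkx2-5+GFP embryo 1 and without Nkx2-5+GFP embryo 6, and 5 without GFP embryo 5 and without Nkx2-5+GFP embryo 5. The causes were not tested. The median log2 difference lay between 0.00 and 0.08, and 0 of the 6 homeolog pairs passed in the alternatives in which they were tested, all but the one with brighter probe sets alone and the one with the mean of all probe sets of a gene. With the replicate block, 1 gene was higher and 2 were lower, as hdac6.L did not pass (limma adjusted p = 0.0669). The labels do not say that equal numbers mark related embryos, and deviations of same-numbered embryos correlated at -0.15 to 0.13. Over all probe sets 988 were called with all embryos, against 437 without the trend, 160 with the beta-actin ratio, and 285 (without Nkx2-5+GFP embryo 1) to 1485 (without Nkx2-5+GFP embryo 5) with 1 embryo left out. Among the brighter probe sets alone 13.1% were called. Of the 42 genes, 32 were in that brighter part, and signals of the others sit nearer the background.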
